A study of Mus musculus with 208 samples.

Results

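Potassium channels let potassium ions cross the membrane, and in neurons they set the resting potential, the shape of the action potential and how readily a cell fires. Voltage-gated channels (Kv) open on depolarisation, inward rectifiers (Kir) hold the resting potential, tandem-pore channels (K2P) carry the leak current, and calcium- or sodium-activated channels (KCa) open after activity, while auxiliary subunits change the gating or traffic of the pore-forming ones. Medium spiny neurons, the projection neurons of the striatum, are known for a strong inward rectifier current, a slow A-type current and an M-type current, all carried by such channels. The potassium channel genes described here are the rows of the count matrix whose symbol begins with Kcn, without Kcng1, Kcnj13 and antisense or overlapping transcripts, and with a mean of at least 0.5 CPM (counts per 1e+06 counts of the scaled library) over all 208 libraries. Of 98 such symbols 6 were excluded by name and 15 by level, which left 77 of the 39179 gene IDs of the series: 35 Kv genes, 12 Kir genes, 10 K2P genes, 7 KCa genes and 13 auxiliary genes. The lowest genes kept were Kcne2 at 0.68 CPM and Kcnh8 at 0.71 CPM, and the highest left out by level was Kcnrg at 0.48 CPM. All 77 passed the low-count filter at each age.

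Libraries of polyadenylated striatal RNA came from mice heterozygous for a Huntington disease knock-in allele, in lines named Q20, Q80, Q92, Q111, Q140 and Q175 for their number of CAG repeats, and from wild types, all of the C57BL/6 strain. The libraries formed 26 groups of 8 with both sexes: each line at 2, 6 and 10 months of age, wild types housed with Q20 mice at all 3 ages, and wild types housed with each of the other 5 lines at 6 months only. At 2 and 10 months the titles of the wild types name no housing, and Q20 was read from a tag in their library names. The labels give replicate numbers and no animals, so the p-values measure the spread between these libraries, which may be technical. Every line with a longer repeat was set against Q20, so those comparisons share the Q20 libraries, and gene counts do not show the repeat length that the labels give.

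Library totals lay between 29.1 and 49.6 M (M, 1e+06 counts), and the median total was 31.9 M for the 2-month, 41.0 M for the 6-month and 33.0 M for the 10-month libraries. At 2 months 5 libraries, of which 2 were Q20 libraries, had a median correlation under 0.97 with the others of their age, with 20.5 to 24.1% of their counts on mitochondrial genes. Y-linked genes had 0 counts in 1 library that its label calls male, M3 of the 2-month Q80 group. At each age the highest scores for cortical, thalamic, choroid plexus and pituitary markers belonged to 4 libraries. These made 10 libraries set apart at 2 months, 4 at 6 months and 4 at 10 months, and where a comparison was also run without them, a count of calls that differed is given. The 9 markers of medium spiny neurons, the defining cells of the striatum, summed to 4499 to 5240 CPM in Q175 libraries and 8712 to 10334 CPM in Q20 libraries at 6 months.

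In wild-type striatum the highest potassium channel transcripts per length were those of auxiliary subunits. Levels of different genes are compared here in FPKM, fragments per kilobase of transcript scaled to the depth of the library, in the 6-month wild types housed with Q20 mice. Kcnip2, a calcium-binding partner of the A-type Kcnd channels, stood first at 137 ± 8.06 FPKM (SD, n = 8), followed by Kcnab1, a cytoplasmic beta subunit of Shaker-type channels, at 117 ± 3.02 FPKM. Kcnt1, a sodium-activated channel, had 102 ± 7.30 FPKM. Kcnab2, another beta subunit, had 86.0 ± 4.45 FPKM, and Kcnj4, a strong inward rectifier, 78.8 ± 3.87 FPKM. The intervals of mean ± SD were apart for Kcnip2 and Kcnab1 and for Kcnab1 and Kcnt1, and they overlapped for Kcnab2 and Kcnj4. Among Kv genes Kcnh3, of the ether-a-go-go family, had 44.3 ± 2.24 FPKM, and Kcnc1, a fast delayed rectifier of interneurons, 35.0 ± 6.13 FPKM. Among Kir genes the astrocytic channel Kcnj10 had 41.6 ± 3.82 FPKM and the G protein-gated Kcnj9 13.1 ± 2.61 FPKM. Of the K2P genes Kcnk1 had 37.7 ± 2.55 FPKM and the stretch- and lipid-sensitive leak channel Kcnk2 32.9 ± 1.29 FPKM, ahead of Kcnk9 at 5.15 ± 0.463 FPKM. Behind Kcnt1 the KCa genes were lower, with Kcnn2, a small-conductance calcium-activated channel, at 8.87 ± 0.865 FPKM and Kcnma1, the large-conductance channel, at 7.77 ± 0.939 FPKM. The median member had 6.97 FPKM, 30 members had at least 10 FPKM and 14 lay under 1 FPKM. By subfamily the median level was 8.32 FPKM for Kv, 5.94 FPKM for Kir, 2.13 FPKM for K2P, 6.10 FPKM for KCa and 11.4 FPKM for auxiliary genes.

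**Figure D1:**
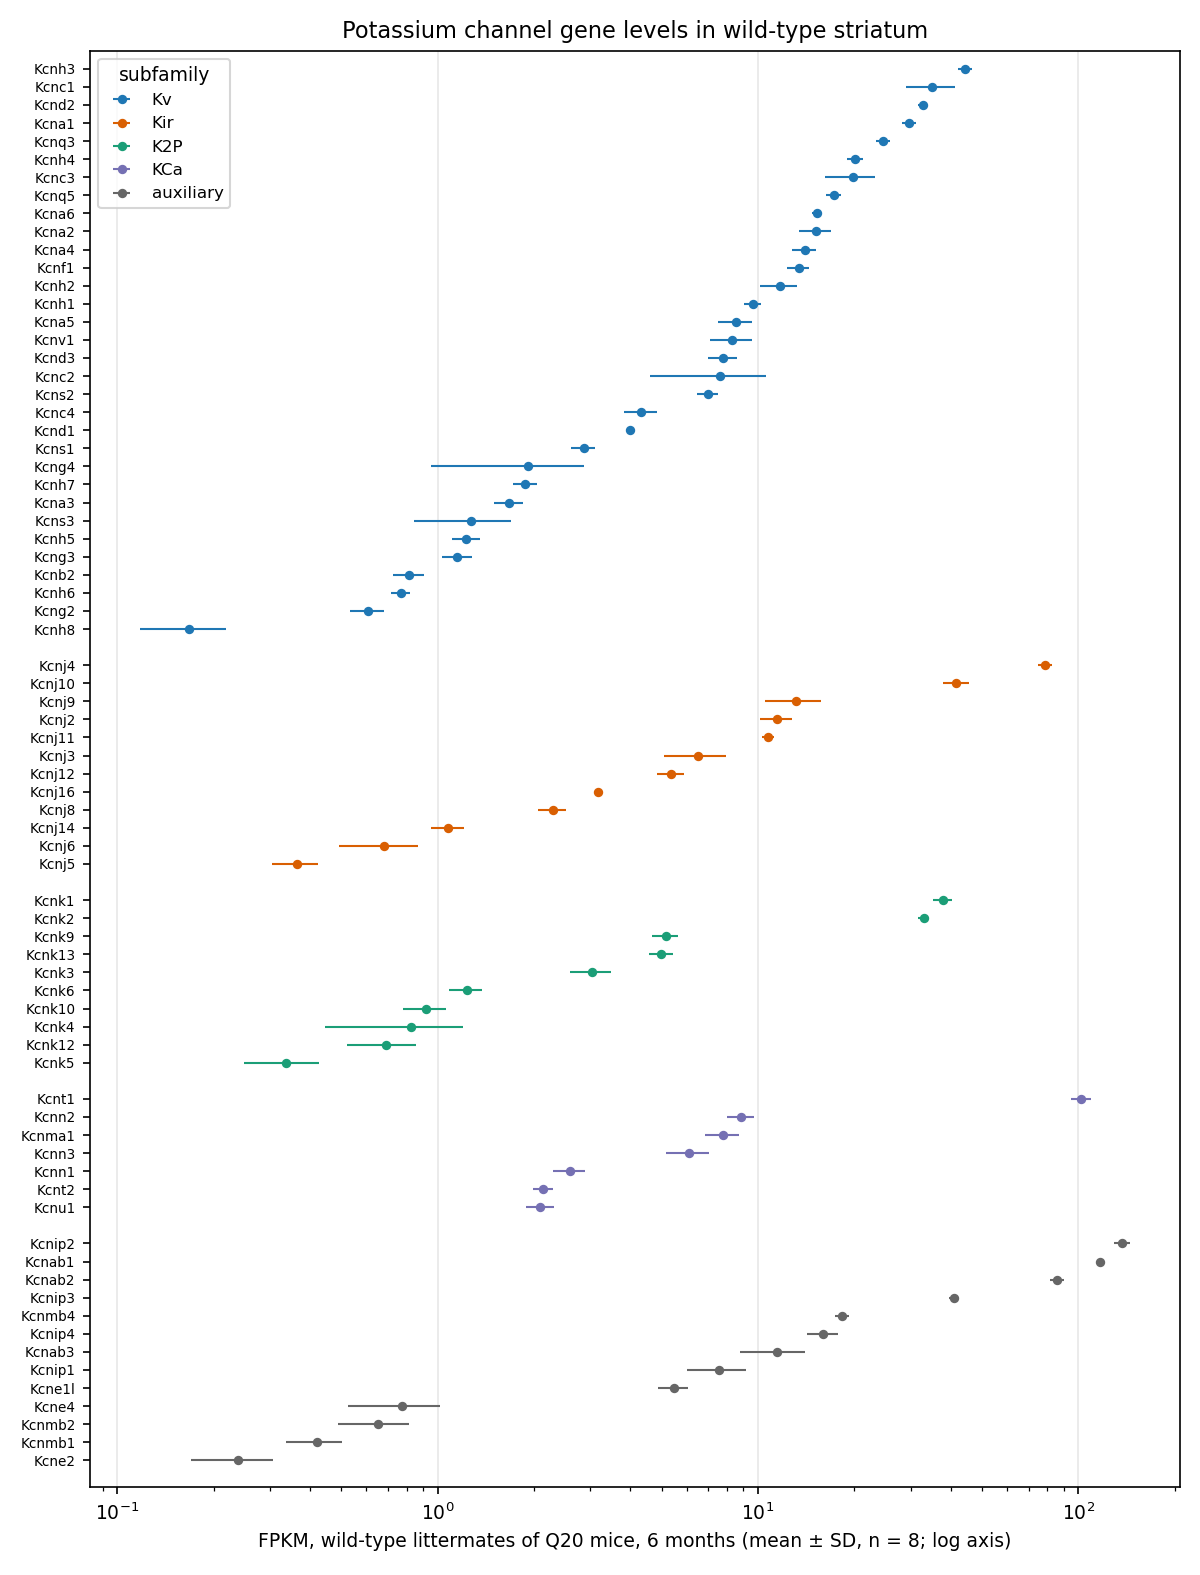
Mean FPKM with its SD on a log axis for 74 potassium channel genes in 8 libraries of wild-type striatum at 6 months, by subfamily. The axis title calls these wild types littermates of Q20 mice, while the labels give only shared housing. The auxiliary genes Kcnip2 and Kcnab1 and the KCa gene Kcnt1 lie above all others, and Kcnh8 is the lowest Kv gene.

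At 6 months some potassium channel genes of every subfamily had lower RNA levels in the Q175 striatum than in the Q20 striatum. Of the 77 genes 28 were lower and 6 higher (edgeR quasi-likelihood test, Benjamini-Hochberg adjusted p under 0.05 over all genes tested), where 18.2% of all genes tested were called lower and 18% higher. Summed over the 77 genes, the level was 1142 ± 42.7 FPKM in Q175 libraries and 1330 ± 17.1 FPKM in Q20 libraries (SD, n = 8 each). The auxiliary genes summed to 364 ± 11.2 FPKM in Q175 libraries and 451.7 ± 10.6 FPKM in Q20 libraries, and the Kv genes to 439 ± 21.4 FPKM in Q175 libraries and 485 ± 10.2 FPKM in Q20 libraries. The median log2 fold change of the members was -0.042, against 0.0097 over all genes tested, and the median absolute change was 0.24 for members and 0.12 for all genes. By subfamily the median was -0.065 for Kv, -0.085 for Kir, -0.089 for K2P, 0.056 for KCa and -0.0023 for auxiliary genes. Of the 77 genes 43 were not called. The members' median was -0.14 with tissue scores as covariates and -0.0043 on log2(FPKM + 1), against 0.0028 and 0.067 over all genes in these fits. In bulk tissue, fewer cells of a type and less RNA per cell cannot be told apart. On log2(FPKM + 1) with limma the split was 23 lower and 11 higher of the 67 members with at least 1 FPKM in 8 libraries, where 51.7% of all genes were called.

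Among the 35 Kv genes 14 were lower and 3 higher. Kcnh4, a slowly gating ether-a-go-go-like channel, changed most of all members. It had 32.4, 39.3 and 42.2 CPM as the lowest, median and highest of the 8 Q175 libraries, against 73.3, 80.6 and 87.6 CPM in the Q20 libraries. No Q175 library reached the lowest Q20 library. The log2 fold change was -1.08 (SE 0.0738, edgeR adjusted p = 2.89e-22). Kcnh3, of the same family, had 107, 115 and 126 CPM in Q175 libraries, against 152, 168 and 191 CPM in Q20 libraries, and fell by 0.54 on the log2 scale (SE 0.0618). Kcnh5, an ether-a-go-go channel, had 2.78, 3.54 and 3.92 CPM in Q175 libraries, against 4.02, 4.98 and 6.08 CPM in Q20 libraries, and fell by 0.54 (SE 0.0815). The groups did not overlap for Kcnh3 or Kcnh5 either. An exon of Kcnh3 overlaps one of Mcrs1 on the other strand, 22 of the members share exon sequence with an opposite-strand gene, among them Kcnab1, Kcnq5, Kcnk1, Kcnk2 and Kcnj3, and whether the counting used the strand is not given in the sources used here.

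Of the M-type channel family Kcnq5 and Kcnq3 were lower in Q175. Kcnq5 had 79.5, 86.0 and 98.8 CPM as the lowest, median and highest Q175 libraries, against 105, 123 and 141 CPM in Q20 libraries, and fell by 0.52 (SE 0.0636). Kcnq3, which joins Kcnq5 in M-type channels, averaged 246 ± 12.9 CPM in Q175 libraries and 289.7 ± 9.20 CPM in Q20 libraries (SD, n = 8 each), and fell by 0.24 (SE 0.0360). The Q175 and Q20 libraries did not overlap for either gene. Kcnh8, another ether-a-go-go-like gene at a very low level, had 0.888, 1.10 and 1.20 CPM in Q175 libraries, against 0.461, 0.607 and 0.712 CPM in Q20 libraries, and rose by 0.84 (SE 0.149) with no overlap.

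Of the A-type genes, Kcna4 averaged 56.0 ± 3.30 CPM in Q175 libraries and 72.1 ± 7.40 CPM in Q20 libraries (SD, n = 8 each), and fell by 0.36 (SE 0.0597). Kcnd2, a pore subunit of the somatodendritic A-type current, averaged 152 ± 7.22 CPM in Q175 libraries and 182 ± 14.1 CPM in Q20 libraries, and fell by 0.26 (SE 0.0439). The groups did not overlap for Kcna4 and overlapped for Kcnd2. Kcnc4, a Shaw-type channel, was called higher at 0.35 (SE 0.143, edgeR adjusted p = 0.0496). It lost that call with RLE factors, without the filter on low counts, with the replicate block, with tissue scores as covariates (0.13) and with all wild types as the reference (0.12). The Kv genes called lower also included Kcng3, Kcnb2, Kcnd1, Kcns2 and Kcna1, at log2 fold changes of -0.40 to -0.16.

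Of the 12 Kir genes 4 were lower and 2 higher in Q175 at 6 months. Kcnj4, a strong inward rectifier of forebrain neurons, had 110.0, 120.1 and 129 CPM as the lowest, median and highest Q175 libraries, against 167, 179.8 and 192 CPM in Q20 libraries. The groups lay apart, and the log2 fold change was -0.58 (SE 0.0607, edgeR adjusted p = 3.12e-13). Kcnj2, another strong inward rectifier, averaged 54.2 ± 5.17 CPM in Q175 libraries and 69.6 ± 8.25 CPM in Q20 libraries, and fell by 0.36 (SE 0.0784). Kcnj14, also a rectifier, fell by 0.32 (SE 0.0897) and Kcnj8, the pore of ATP-sensitive channels of vessel walls, by 0.27 (SE 0.0797). Kcnj2, Kcnj14 and Kcnj8 had overlapping groups. Beside Kcnj8, 6 of 7 endothelial and mural markers were lower, with summed levels of 343 to 376 CPM in Q175 libraries and 387 to 425 CPM in Q20 libraries, and their part in the result was not tested. Kcnj10, the main potassium buffer channel of astrocytes, had a log2 fold change of -0.089 (SE 0.0840) and was not called. Kcnj3, a G protein-gated channel, rose by 0.49 (SE 0.156) and Kcnj16, the astrocytic partner of Kcnj10, by 0.32 (SE 0.0966). Neither was called against the wild types housed with Q175 mice, where Kcnj3 stood at 0.25 (SE 0.155) and Kcnj16 at 0.11 (SE 0.0960). The 10 cortical markers had medians of their summed level of 98.3 CPM in Q175 libraries and 57.6 CPM in Q20 libraries, with ranges of 75.1 to 157 CPM in Q175 libraries and 50.8 to 199 CPM in Q20 libraries, and 1 of them was called higher. With tissue scores as covariates Kcnj16 stood at 0.20 and was not called, and the part of the cortical markers in the rise of Kcnj3 was not tested. The thalamic markers summed to 66.0 to 388 CPM in Q175 libraries and 54.5 to 107 CPM in Q20 libraries, and the choroid plexus markers to 42.9 to 73.9 CPM in Q175 libraries and 32.9 to 78.7 CPM in Q20 libraries.

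Of the 10 K2P genes 4 were lower and 0 higher in Q175 at 6 months by edgeR, and 5 had an unadjusted p under 0.05 in either direction. Kcnk2 had 79.2, 84.4 and 90.8 CPM as the lowest, median and highest Q175 libraries, against 112, 121 and 138 CPM in Q20 libraries, and fell by 0.52 (SE 0.0611) with no overlap of the groups. Kcnk5, an alkaline-activated leak channel at a very low level, averaged 0.760 ± 0.110 CPM in Q175 libraries and 1.02 ± 0.191 CPM in Q20 libraries, and its log2 fold change was -0.43 (SE 0.157). Kcnk13, a leak channel known from microglia, had 11.1, 12.4 and 13.5 CPM in Q175 libraries, against 13.2, 14.8 and 17.5 CPM in Q20 libraries, and fell by 0.26 (SE 0.0623). The highest Kcnk13 library of Q175 lay above the lowest of Q20. Beside it 2 of 5 microglia markers were lower, with summed levels of 258 to 311 CPM in Q175 libraries and 294 to 316 CPM in Q20 libraries, and their part in the result was not tested. Kcnk1, the K2P gene highest per length, fell by 0.17 (SE 0.0430).

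Of the 7 KCa genes 2 were lower and 1 higher. Kcnt1 had 229, 251 and 266 CPM in Q175 libraries, against 308, 344 and 366 CPM in Q20 libraries. It fell by 0.45 (SE 0.0461, edgeR adjusted p = 1.07e-13), with all Q175 libraries below all Q20 libraries. Kcnn3, a small-conductance channel, fell by 0.20 (SE 0.0709) and lost its call on the FPKM scale, with the L code of the library names as a factor, with tissue scores, with all wild types as the reference and with only the Q175 and Q20 libraries in the fit. Kcnma1 was not called (-0.025, SE 0.0706). Kcnu1, a channel known from sperm, had 2.86, 3.31 and 3.71 CPM in Q175 libraries, against 2.20, 2.88 and 2.97 CPM in Q20 libraries, and rose by 0.27 (SE 0.0734) with overlapping groups.

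Of the 13 auxiliary genes 4 were lower and 0 higher by edgeR, and 4 had an unadjusted p under 0.05. Kcnab1 had 244, 258 and 287 CPM as the lowest, median and highest Q175 libraries, against 367, 414 and 469 CPM in Q20 libraries. The groups lay well apart, at a log2 fold change of -0.66 (SE 0.0625, edgeR adjusted p = 3.18e-15). Kcnip2 had 237, 252 and 268 CPM in Q175 libraries, against 351, 389 and 399 CPM in Q20 libraries, and fell by 0.61 (SE 0.0688). Kcnip3, a calcium-binding partner of the A-type channels that also binds DNA, had 74.6, 83.7 and 90.1 CPM in Q175 libraries, against 94.5, 114 and 129 CPM in Q20 libraries, and fell by 0.44 (SE 0.0470). Neither gene had a Q175 library as high as any Q20 library. Kcne1l, a single-pass beta subunit, had a log2 fold change of -0.28 (SE 0.0566). Kcnab2, at -0.033 (SE 0.0360), and Kcnip4, at 0.086 (SE 0.0760), were not called, and neither was Kcnmb4, the neuronal beta subunit of Kcnma1, at 0.022 (SE 0.0518).

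Promoter sequences are shown for 3 of these genes because they fell together and each has a single start whose upstream bases overlap no annotated exon. RefSeq (GRCm38.p6) holds a window for 56 of the 77 members, and for 7 of the 8 that fell by at least 0.5 on the log2 scale at 6 months. The windows are the 250 bases upstream of the start of Kcnip2 (chr19:45816064-45816313), Kcnj4 (chr15:79505242-79505491) and Kcnh5 (chr12:75177333-75177582), all on the minus strand and written 5′ to 3′ along the gene. Capitals mark TGACG, read on either strand, the core of the cyclic AMP response element.
Kcnip2: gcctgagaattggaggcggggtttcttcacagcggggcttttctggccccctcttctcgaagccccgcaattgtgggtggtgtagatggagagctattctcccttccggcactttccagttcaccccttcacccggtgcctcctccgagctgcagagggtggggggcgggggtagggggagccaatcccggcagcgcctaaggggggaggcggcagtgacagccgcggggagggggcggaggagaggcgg
Kcnj4: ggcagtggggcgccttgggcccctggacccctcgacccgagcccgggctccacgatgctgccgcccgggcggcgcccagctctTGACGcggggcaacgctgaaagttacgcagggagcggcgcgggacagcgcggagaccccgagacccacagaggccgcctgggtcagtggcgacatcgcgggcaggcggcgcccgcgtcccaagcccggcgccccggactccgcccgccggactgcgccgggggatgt
Kcnh5: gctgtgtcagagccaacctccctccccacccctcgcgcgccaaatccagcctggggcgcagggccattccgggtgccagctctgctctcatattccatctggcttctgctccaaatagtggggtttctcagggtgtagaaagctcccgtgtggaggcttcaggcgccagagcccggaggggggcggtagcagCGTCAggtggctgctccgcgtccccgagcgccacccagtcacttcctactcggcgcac
The GC content was 66.8% in the Kcnip2 window, 77.2% in the Kcnj4 window and 65.6% in the Kcnh5 window, against a median of 59.6% over all windows of members and 52.4% over all genes. TGACG was found for 4 of the 18 members with a window that fell (22.2%), for 7 of the 34 not called (20.6%), for 1 of the 4 that rose and for 19.8% of 27025 genes. The early growth response motif, searched as GCGTGGGCG or GCGGGGGCG on both strands, was found for 2 of the 18 that fell, for 1 of the 34 not called, for 0 of the 4 that rose and for 3.47% of all genes. TATAAA was found for 0 of the 18 that fell, for 1 of the 34 not called, for 1 of the 4 that rose and for 14.3% of all genes. A match of letters is a description and not a binding site.

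Over all subfamilies 13 members were lower in every Q175 library than in any Q20 library at 6 months and 2 were higher, where 6.33% of all genes tested had groups apart with Q175 lower and 4.46% with Q175 higher. All 9 medium spiny neuron markers were lower at this age, at a median log2 fold change of -0.89, as were 2 of 6 astrocyte, 2 of 5 oligodendrocyte and 1 of 4 interneuron markers, with no marker of these lists at 0. The part of these markers in the channel results was not tested. Without the libraries set apart 29 members were lower and 8 higher, where 6708 of 17742 genes tested were called.

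The same comparison gave few calls at 2 months. There 1 member was lower and 0 higher by edgeR, where 0.188% of all genes tested were called lower and 0.0294% higher, and 5 members had an unadjusted p under 0.05. That member was Kcnh4, with 40.9, 47.0 and 53.3 CPM as the lowest, median and highest Q175 libraries, against 49.6, 64.2 and 67.1 CPM in Q20 libraries, and a log2 fold change of -0.37 (SE 0.0718, edgeR adjusted p = 0.0058). The groups overlapped, and without the libraries set apart the count was also 1, where 47 of 17075 genes tested were called. The call did not hold with limma on log2(FPKM + 1) (-0.30), with the L code as a factor (-0.25) or with only the Q175 and Q20 libraries in the fit (-0.37). Kcnab1 had 312, 368 and 392 CPM in Q175 libraries, against 390.4, 423 and 523.2 CPM in Q20 libraries, and was not called (-0.28, SE 0.0708, edgeR adjusted p = 0.0765). The median SE of a member's log2 fold change was 0.133 at 2 months, 0.0797 at 6 months and 0.0914 at 10 months. At 2 months 1 of 9 medium spiny neuron markers was lower, with summed levels of 5892 to 7155 CPM in Q175 libraries and 7009 to 9695 CPM in Q20 libraries.

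At 10 months 21 members were lower and 2 higher in Q175, where 12.1% of all genes tested were called lower and 12.4% higher. They were 10 lower and 1 higher Kv genes, 3 lower Kir genes, 4 lower K2P genes, 1 lower and 1 higher KCa genes and 3 lower auxiliary genes. Leaving out the libraries set apart, 20 were lower and 2 higher, where 4123 of 17265 genes tested were called. Kcnh4 had 22.5, 26.2 and 29.5 CPM as the lowest, median and highest Q175 libraries, against 45.3, 51.9 and 57.3 CPM in Q20 libraries, and fell by 0.96 (SE 0.0733). Kcnh5 had 2.57, 3.46 and 4.52 CPM in Q175 libraries, against 5.15, 5.65 and 6.40 CPM in Q20 libraries, and fell by 0.71 (SE 0.0910). Kcnip2 had 167, 204 and 213 CPM in Q175 libraries, against 263, 312 and 339 CPM in Q20 libraries, and fell by 0.63 (SE 0.0664). These 3 genes had groups apart, as had 7 lower members in all and 0 higher ones, where 3.23% of all genes tested had groups apart with Q175 lower and 1.97% with Q175 higher. Kcnk13 had 8.18, 9.98 and 12.96 CPM in Q175 libraries, against 12.6, 14.8 and 16.4 CPM in Q20 libraries, and fell by 0.53 (SE 0.0706), with groups that just overlapped. Kcnk5 fell by 0.60 (SE 0.192), Kcnq5 by 0.47 (SE 0.0696), Kcnab1 by 0.45 (SE 0.0610) and Kcnk2 by 0.40 (SE 0.0706). Kcnj5, a G protein-gated channel, fell by 0.42 (SE 0.141) and lost its call with the L code as a factor and with all wild types as the reference. The higher members included Kcnu1 at 0.30 (SE 0.0831). Of the other members higher at 6 months, Kcnh8 (0.27, SE 0.172), Kcnj3 (0.19, SE 0.147), Kcnj16 (-0.0047, SE 0.0914) and Kcnc4 (-0.22, SE 0.135) were not called at 10 months. All 9 medium spiny neuron markers were lower at 10 months too, at a median of -0.80, as were 4 of 6 astrocyte, 2 of 5 oligodendrocyte, 2 of 7 vascular, 1 of 5 microglia and 1 of 4 interneuron markers, while 1 astrocyte and 1 oligodendrocyte marker were higher, and their part in the channel results was not tested.

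**Figure D2:**
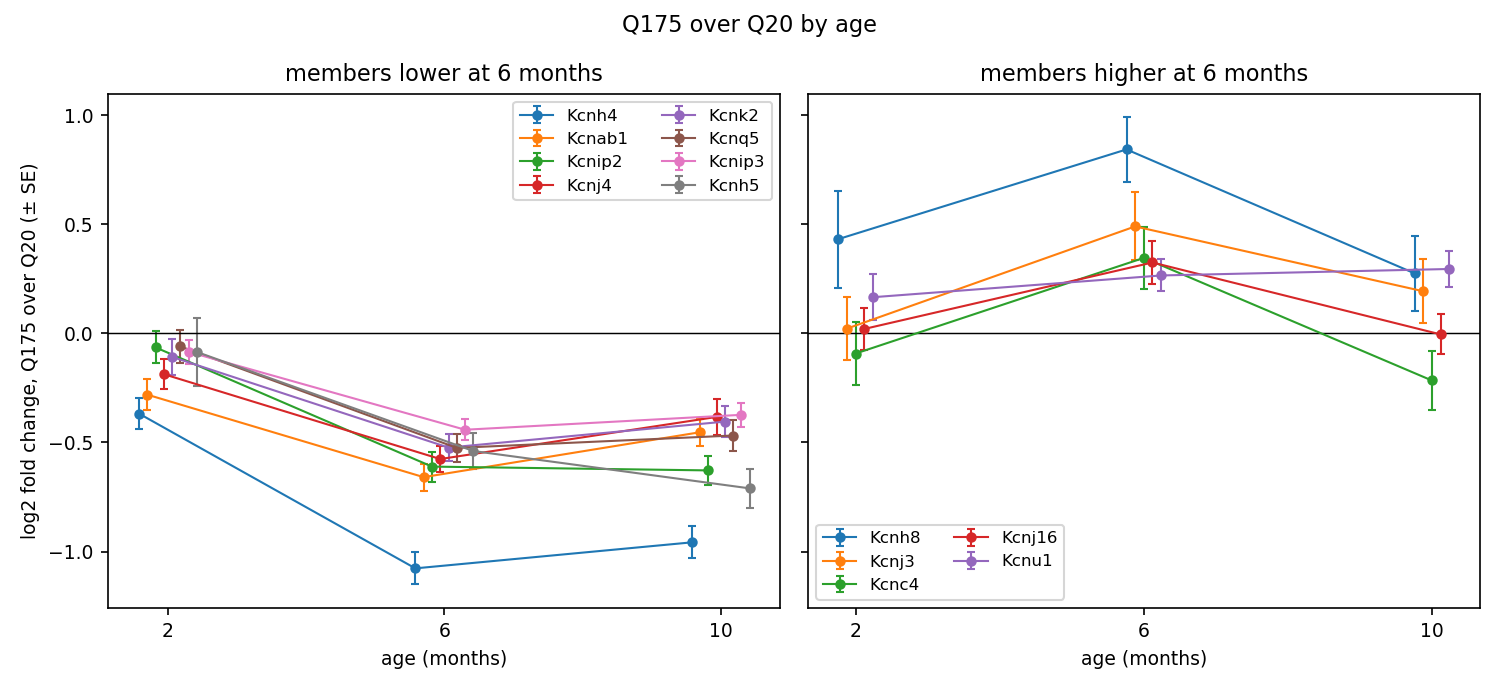
Log2 fold change of Q175 over Q20 with its SE at 2, 6 and 10 months for 8 members lower and 5 members higher at 6 months (n = 8 libraries per group and age). Kcnh4 is the lowest of these genes at each age, and of the 5 higher genes drawn Kcnu1 is also called at 10 months.

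The change between ages was tested directly as the difference of the Q175 effect. The effect at 6 months was more negative than at 2 months for 14 members and more positive for 0 by edgeR, the only tool run here, where 4.84% of all genes tested moved down and 3.61% up, and 24 members had an unadjusted p under 0.05. The difference was -0.71 (SE 0.0844, edgeR adjusted p = 6.39e-09) for Kcnh4, -0.55 (SE 0.0825) for Kcnip2 and -0.46 (SE 0.0910) for Kcnq5. It was -0.41 (SE 0.0826) for Kcnk2 and -0.35 (SE 0.0753) for Kcnip3. At 10 months against 2 months 8 members moved down and 0 up, with 20 at an unadjusted p under 0.05 and 4.27% down and 2.35% up of all genes. Among them Kcnh5 differed by -0.64 (SE 0.144), Kcnh4 by -0.60 (SE 0.0853) and Kcnip2 by -0.58 (SE 0.0827). Between 6 and 10 months edgeR called 0 members, with 11 at an unadjusted p under 0.05, and 0.0403% of all genes. These tests share the libraries of each age. Where the ages were prepared apart, this cancels only if it acted alike on both lines. The age tests were not run without the libraries set apart, which at 2 months include Q20 libraries.

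No difference of the Q175 effect between females and males was called for a member at any age. By edgeR, the only tool run here, 0 members were called at 2, 6 and 10 months, with 2 at 2 months, 1 at 6 months and 7 at 10 months at an unadjusted p under 0.05, and 0% of all genes tested were called. At 6 months Kcnh4 stood at -0.99 (SE 0.102) in females and -1.17 (SE 0.102) in males, and the difference of females minus males was 0.18 (SE 0.143). Within each sex at 6 months, 21 members were lower and 3 higher in Q175 females (10.4% and 8.99% of all genes), and 22 lower and 3 higher in Q175 males (13.4% and 11.8%).

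At 6 months more members were called in the lines with longer repeats. Compared with Q20, 0 members were lower in Q80 by edgeR and 1 higher, with 12 at an unadjusted p under 0.05, 9 were lower in Q92 and 3 higher, 17 lower in Q111 and 2 higher, and 29 lower in Q140 and 5 higher. The share of all genes tested called lower was 0.085% for Q80, 2.99% for Q92, 7.45% for Q111 and 14.1% for Q140, and the share called higher was 0.204%, 3%, 5.37% and 13.8% in that order. On the FPKM scale 9 members were lower and 5 higher in Q92 (10.3% of all genes called), and 14 lower and 4 higher in Q111 (18.6%). Leaving out the libraries set apart, 18 were lower and 3 higher in Q111, and 30 were lower and 7 higher in Q140. Of 17742 genes tested in that fit 2607 were called in Q111 and 5278 in Q140. Kcnh4 averaged 80.4 ± 5.01 CPM in Q20 libraries, 73.3 ± 7.86 CPM in Q80 libraries, 70.5 ± 12.02 CPM in Q92 libraries, 53.1 ± 1.39 CPM in Q111 libraries, 42.8 ± 5.77 CPM in Q140 libraries and 38.1 ± 4.09 CPM in Q175 libraries (SD, n = 8 each). The libraries of every neighbouring pair of lines overlapped in range, and those of Q111, Q140 and Q175 lay wholly below the Q20 libraries. It was not called in Q80 (-0.13, SE 0.0723) or Q92 (-0.19, SE 0.0726), and fell by 0.60 (SE 0.0728) in Q111 and by 0.91 (SE 0.0736) in Q140. Kcnab1 fell by 0.24 (SE 0.0623) in Q92, by 0.45 (SE 0.0624) in Q111 and by 0.52 (SE 0.0624) in Q140. Kcnu1 rose by 0.25 (SE 0.0736) in Q111 and 0.31 (SE 0.0738) in Q140. In Q140 the electrically silent subunit Kcng3 fell by 0.64 (SE 0.110) and Kcnh8 rose by 0.58 (SE 0.153).

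Calls of higher members in the short-repeat lines changed without the libraries set apart. The member higher in Q80 was Kcne2, a beta subunit known from the choroid plexus, at a log2 fold change of 3.44 (SE 0.729). A single library held 86.8% of the Kcne2 CPM of the Q80 group, at 25.2 CPM against a group median of 0.561 CPM, and without the libraries set apart, which include the Q80 library with the highest choroid plexus score, 0 members were called in Q80. In Q92 the leak channel Kcnk4 was higher at 1.15 (SE 0.353), with 0.791, 1.19 and 4.36 CPM as the lowest, median and highest Q92 libraries, against 0.517, 0.736 and 1.56 CPM in Q20 libraries. Kcnk4 shares exon sequence with Catsperz on the same strand, and how the counting split such reads is not given in the sources used here. Without the libraries set apart 9 members were lower and 0 higher in Q92, where 820 of 17742 genes tested were called.

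**Figure D3:**
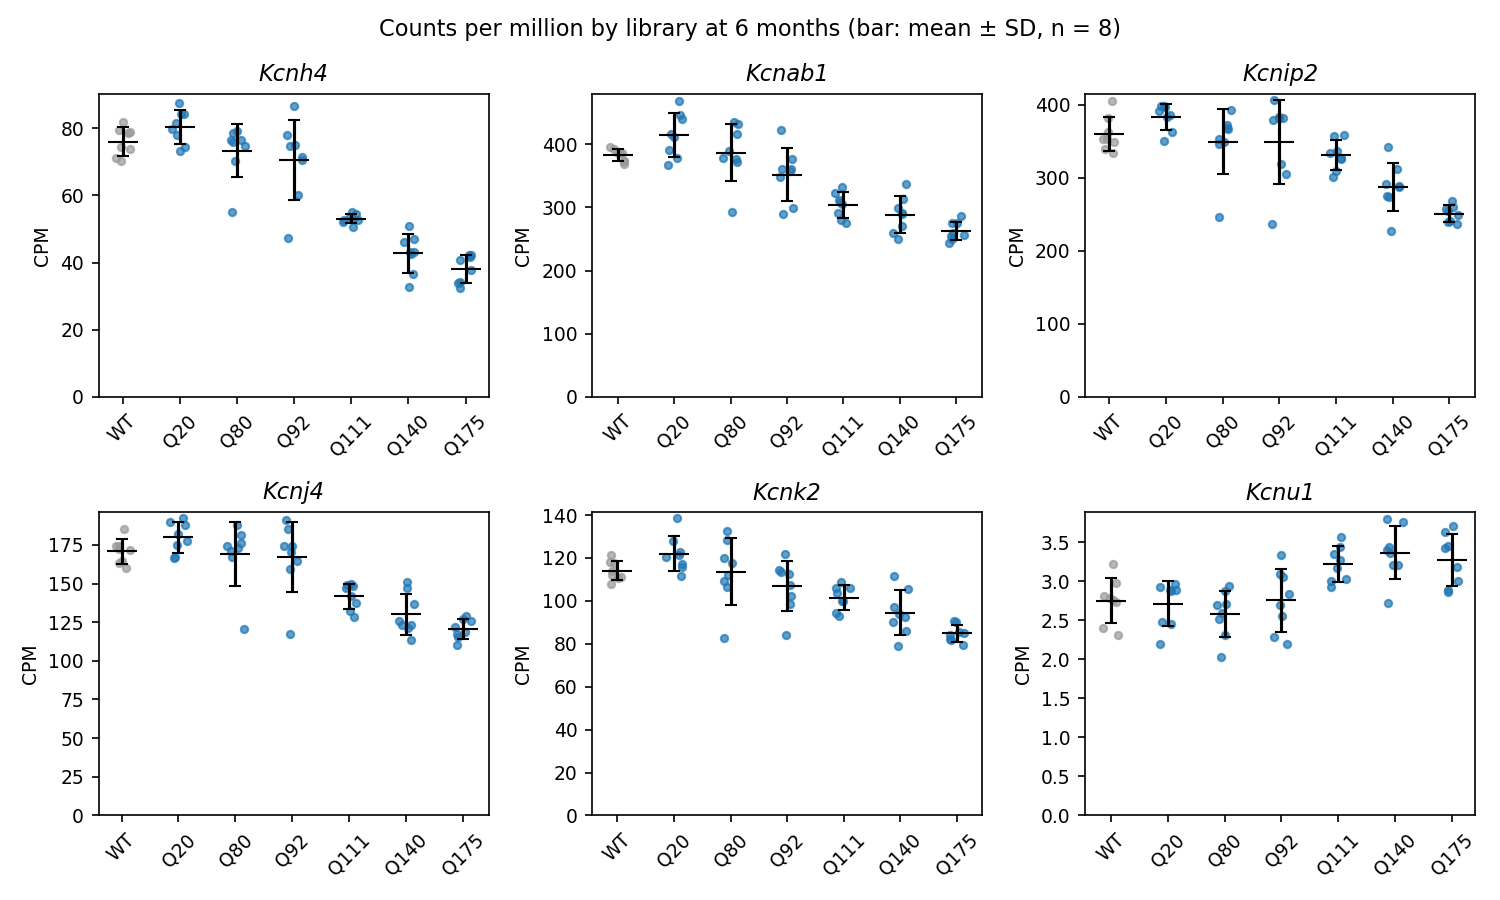
CPM of 6 members in each 6-month library, from wild types housed with Q20 mice (WT) through the knock-in lines Q20 to Q175, with the mean and SD of 8 libraries. The 6 members were chosen among those called in Q175 at this age. Kcnh4, Kcnab1, Kcnip2, Kcnj4 and Kcnk2 have their lowest means in Q175, and Kcnu1 has its highest means in Q140 and Q175.

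A linear trend over the 6 knock-in lines was fitted in log2 change per 10 CAG repeats. Libraries were taken as independent, although repeat length differs only between lines. Other differences between lines cannot be told apart from repeat length here, and the SE and the calls do not allow for them. At 6 months 29 members fell with repeat length and 6 rose, where 19.6% of all genes tested fell and 20.3% rose. Without the libraries set apart 30 fell and 12 rose, where 7651 of 17498 genes tested were called. On the FPKM scale 26 fell and 10 rose of the 63 members tested, where 55.1% of all genes were called. The slope was -0.079 (SE 0.00654) for Kcnh4, -0.046 (SE 0.00426) for Kcnab1 and -0.041 (SE 0.00444) for Kcnj4. It was 0.06 (SE 0.00846) for Kcnh8 and 0.028 (SE 0.00965) for Kcnj3, which lost its call without the Q175 or without the Q20 libraries. At 10 months 25 members fell and 2 rose, where 16.9% of all genes tested fell and 15.9% rose, and on the FPKM scale 18 fell and 5 rose of 67, where 47.3% of all genes were called. At this age 24 fell and 2 rose without the libraries set apart, where 5455 of 17205 genes tested were called. The slopes were -0.074 (SE 0.00679) for Kcnh4, -0.05 (SE 0.00605) for Kcnip2 and -0.046 (SE 0.00628) for Kcnh5, and 0.021 (SE 0.00492) for Kcnu1. At 2 months Kcnh4 (-0.027, SE 0.00524) and Kcnab1 (-0.022, SE 0.00490) fell and 0 members rose by edgeR or limma, with 10 at an unadjusted p under 0.05 with edgeR, where 0.307% of all genes tested fell and 0.0472% rose. Both lost the call without the Q175 libraries or with the L code as a factor. Without the libraries set apart 3 members fell, where 160 of 17003 genes tested were called.

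At 10 months the comparisons with Q20 gave 0 members in Q80, 2 lower in Q92, 13 lower and 2 higher in Q111 and 18 lower and 3 higher in Q140. The share of all genes tested that was called was 0.122% for Q80, 1.12% for Q92, 12.5% for Q111 and 22.5% for Q140. In Q80, limma on log2(FPKM + 1) also called 0 members, and 17 had an unadjusted p under 0.05 with edgeR. Without the libraries set apart 3 members were lower in Q92, 14 lower and 2 higher in Q111 and 17 lower and 2 higher in Q140. Of 17265 genes tested in that fit 236 were called in Q92, 2253 in Q111 and 3053 in Q140. The members lower in Q92 were Kcnh4 at -0.51 (SE 0.0724) and Kcnt1 at -0.22 (SE 0.0589). Kcnh4 stood at -0.89 (SE 0.0731) in Q111 and -0.97 (SE 0.0734) in Q140, where its libraries lay apart from those of Q20. In Q111 Kcnh5 fell by 0.69 (SE 0.0909), and in Q140 Kcnq5 fell by 0.51 (SE 0.0696) and Kcnj5 by 0.49 (SE 0.142). Kcnu1 rose by 0.27 (SE 0.0831) in Q111 and 0.28 (SE 0.0833) in Q140, and Kcnmb4 by 0.18 (SE 0.0677) in Q140. At 2 months edgeR called 0 members in Q80, Q92, Q111 and Q140, with 0 for Q80, 1 for Q92, 9 for Q111 and 6 for Q140 at an unadjusted p under 0.05, where the share of all genes called was 0.0118%, 0%, 0.0176% and 0% in that order, and limma on log2(FPKM + 1) also called 0 in each.

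**Figure D4:**
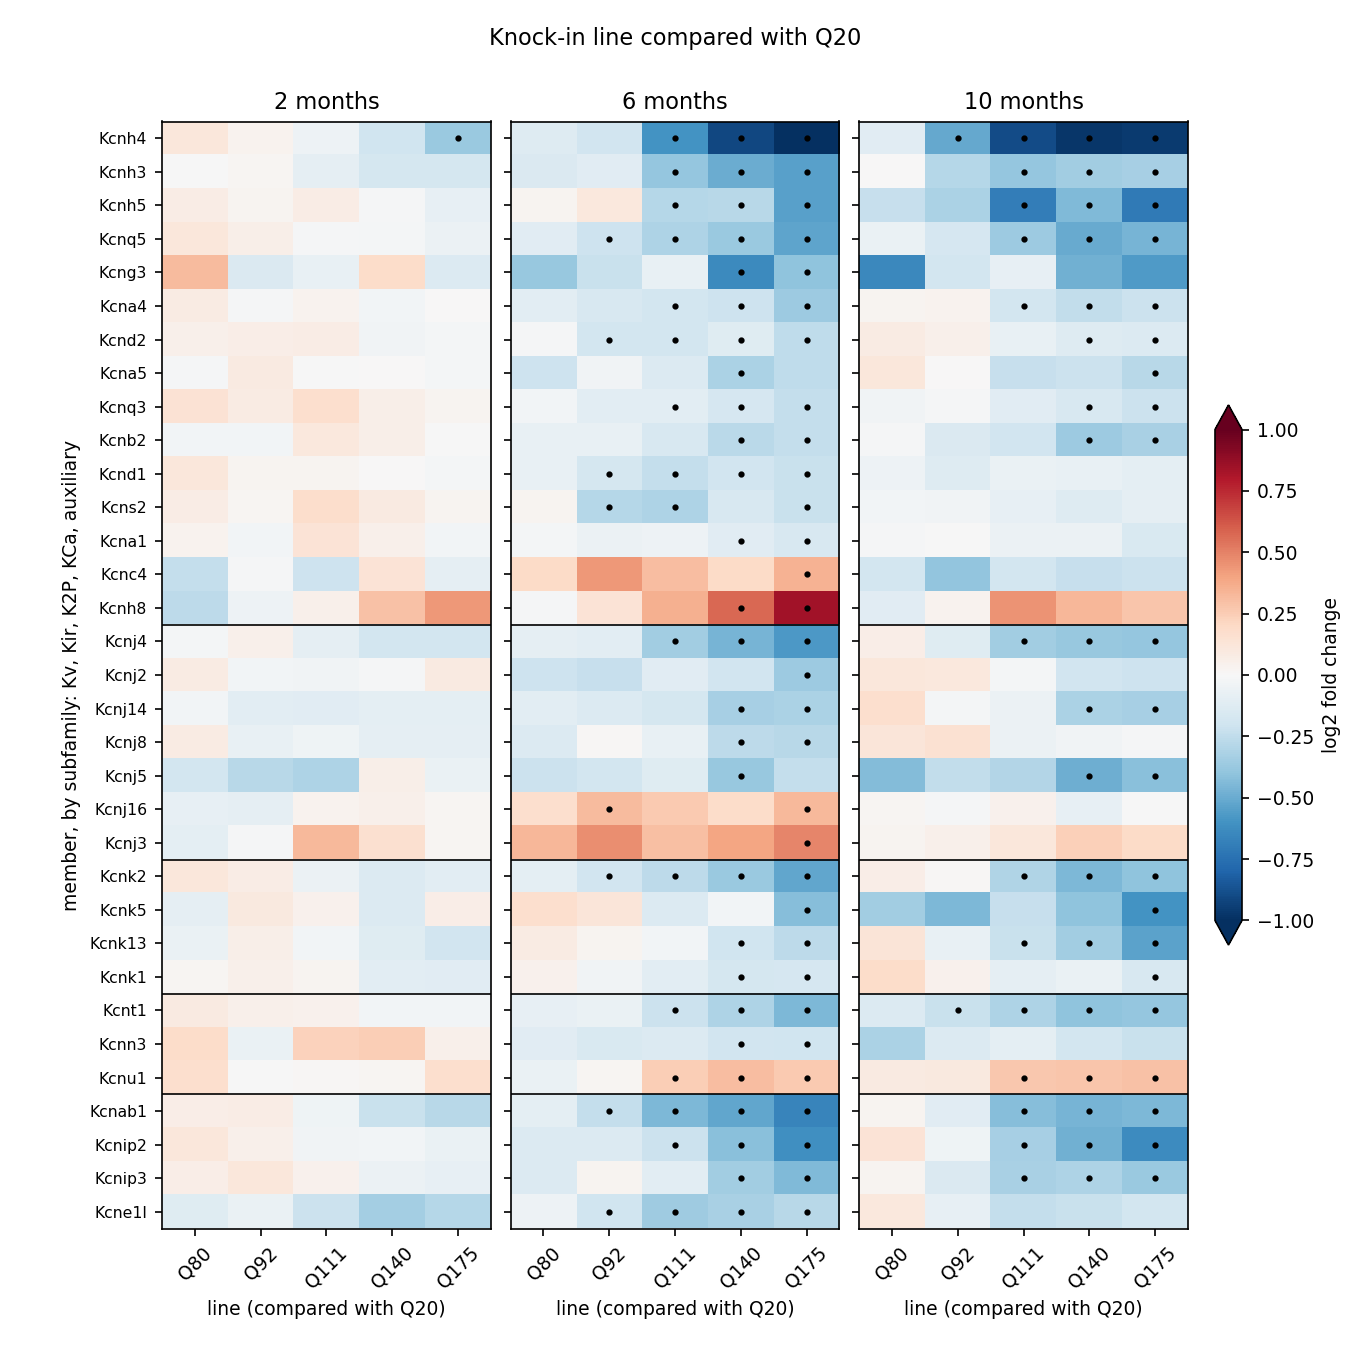
Log2 fold change of each knock-in line over Q20 at 2, 6 and 10 months for 33 members called in Q175 at 6 or 10 months, by subfamily, with dots for edgeR adjusted p under 0.05. The members were picked by their Q175 calls, so the number of dots in Q175 follows in part from that choice. Kcnu1 is called higher in Q111, Q140 and Q175 at both 6 and 10 months.

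At 6 months each line also had wild types of its own housing, so these comparisons share no libraries with each other. Against them 27 members were lower and 3 higher in Q175 (16.1% and 15.7% of all genes tested), 20 lower and 4 higher in Q140 (11.7% and 12.4%) and 16 lower and 1 higher in Q111 (4.66% and 4.28%). On the FPKM scale the Q111 split was 11 lower and 3 higher, where 14.6% of all genes were called. Without the libraries set apart 28 were lower and 3 higher in Q175 and 22 lower and 4 higher in Q140. In Q111, 17 were lower and 3 higher. Of 17742 genes tested in that fit 5965 were called in Q175, 4588 in Q140 and 1963 in Q111. The 20 members lower in Q140 were all among the 27 lower in Q175, 100% of the Q140 list and 74.1% of the Q175 list, and 11 of the 16 lower in Q111 were, 68.8% of the Q111 list and 40.7% of the Q175 list. The same overlap over all genes was not computed, so these shares cannot be read as particular to the channel genes. The 10 members lower in Q111, Q140 and Q175 included the Kv genes Kcnd1, Kcnh3, Kcnh4 and Kcnh5, the rectifier Kcnj4, the K2P gene Kcnk1, the sodium-activated Kcnt1 and the auxiliary Kcnab1 and Kcne1l, and the member higher in all 3 lines was Kcnu1. Kcnh4 averaged 38.1 ± 4.09 CPM in Q175 libraries and 75.8 ± 4.55 CPM in their wild types (SD, n = 8 each), at a log2 fold change of -0.99 (SE 0.0737, edgeR adjusted p = 2.45e-20). It stood at -0.83 (SE 0.0737) in Q140 and -0.53 (SE 0.0729) in Q111, and in each of these 3 lines every knock-in library lay below every wild-type library. Kcnab1 fell by 0.66 (SE 0.0625) in Q175 and by 0.47 (SE 0.0624) in Q140, and Kcnh5 by 0.71 (SE 0.0812) in Q175. In Q111 Kcne1l fell by 0.41 (SE 0.0569), the acid-sensitive leak channel Kcnk3 by 0.38 (SE 0.112) and Kcnj10 by 0.28 (SE 0.0840). The 6 thalamic markers summed to 62.0, 72.2 and 214 CPM as the lowest, median and highest Q111 libraries, against 60.7, 163 and 799.9 CPM in their wild types, and their part in these results was not tested. The median log2 fold change of the members in Q111 was -0.13 against these wild types and -0.021 against Q20. Kcnu1 rose by 0.35 (SE 0.0737) in Q175, 0.24 (SE 0.0739) in Q140 and 0.25 (SE 0.0737) in Q111. Kcnh8 rose by 0.84 (SE 0.149) in Q175 and 0.73 (SE 0.156) in Q140, where Kcnh6, an ether-a-go-go-related gene, also rose by 0.25 (SE 0.0801).

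Against their own wild types edgeR called 0 members in Q92 and in Q80, with 3 in Q92 and 2 in Q80 at an unadjusted p under 0.05, and limma on log2(FPKM + 1) called 0 in both, where 0.051% of all genes tested were called in each line. In Q92, 12 members were called against Q20 and 0 against its own wild types, and the difference between these comparisons was not tested. In Q20 itself edgeR and limma on log2(FPKM + 1) called 0 members against wild types at 2, 6 and 10 months, with 1 at 2 months, 10 at 6 months and 3 at 10 months at an unadjusted p under 0.05 with edgeR, where 0%, 0.0227% and 0.0116% of all genes were called. Among the 6 wild-type groups of 6 months Kcne2 (edgeR adjusted p = 0.000378) and Kcnmb4 (edgeR adjusted p = 0.0464) differed, where 1.34% of all genes tested did. For Kcne2 a single library of the wild types housed with Q80 mice held 88.2% of that group's CPM, at 26.3 CPM. The wild-type group means of Kcnmb4 ran from 22.8 ± 1.56 CPM in those housed with Q175 mice to 26.6 ± 1.51 CPM in those housed with Q92 mice.

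Genes outside the Kcn family whose proteins work with these channels or are close kin were followed in a list of 15, of which 14 were tested. In Q175 at 6 months 5 were higher and 3 lower than in Q20, where 18% of all genes tested were called higher and 18.2% lower. At 10 months 3 were higher and 3 lower, where 12.4% of all genes tested were called higher and 12.1% lower. Lrrc26, a gamma subunit of the large-conductance channel Kcnma1, fell by 0.87 (SE 0.133) at 6 months and by 1.01 (SE 0.223) at 10 months, while Lrrc55, of the same group, rose by 0.36 (SE 0.0598) at 6 months and by 0.21 (SE 0.0625) at 10 months. The sulfonylurea receptor Abcc8, a subunit of ATP-sensitive channels, fell by 0.33 (SE 0.0591) at 6 months and by 0.25 (SE 0.0851) at 10 months, and Abcc9, which pairs with Kcnj8 and is also among the vascular markers, fell by 0.30 (SE 0.0575) at 6 months. Dpp10, a partner of the Kcnd channels, rose by 0.29 (SE 0.0561) at 6 months and by 0.16 (SE 0.0452) at 10 months, and Dpp6 rose by 0.087 (SE 0.0240) at 6 months, the age at which Kcnip2 and Kcnip3, also partners of these channels, fell. The cation channel gene Hcn3 rose at 6 months by 0.31 (SE 0.0552).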

How the data were processed

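Striatal polyA RNA of 208 libraries in 26 groups was analysed from the authors' deposited tables of estimated counts per gene (32.7% of positive values were not whole) and of FPKM. Base calls came from CASAVA 1.8.2, per the submitters' processing notes, while aligner, build and strand use were not given in the sources used here. Estimated counts that the authors deposited were rounded. Symbols covered 96.0% of gene IDs and 99.7% of counts. Groups and sex followed the labels. Each age was fitted with edgeR 4.0.16 (R 4.3.3) by its quasi-likelihood test with TMM factors and a filter (minimum count 10, total 15). The main fits had 1 term per group and 1 added term for sex, and only the tests by sex had 1 term per group and sex. Benjamini-Hochberg adjustment ran over all genes tested, called under 0.05. The repeat-length and age-difference tests used the knock-in lines and, for ages, wild types housed with Q20 mice. CPM is scaled by TMM within an age. The SE of a log2 fold change was derived from its F value. The FPKM values, as deposited by the authors, served for levels and for limma 3.58.1 on log2(FPKM + 1), whose fold changes understate low genes. DESeq2 1.42.0 was an alternative. The fits were tested on simulated data. No 2 libraries held identical values (highest correlation 0.993). Intervals from counting were not needed with 8 libraries per group.

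The members and lists were chosen with earlier results of these data known. Named genes were, by rule, the largest called falls and rises of each subfamily or comparison, the highest genes per length and a fixed set of textbook striatal channels, and others named beside a count were chosen after their values were seen. A few members are not reported here singly, and counts include them. Tissue scores average cortical, thalamic and choroid plexus markers. The L code is a tag in the library names of unstated meaning. Promoter windows came from RefSeq and exons from GENCODE vM21.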

Additional observations from a re-analysis of the deposited data

Results flagged for a closer look

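The check took chosen members in the Q175 and Q20 groups of each age, 72 sets of 8 libraries in all. In each set the gap of the highest or lowest library was compared with the range on the log2 scale. In 2 sets a library stood far from the rest, where chance gives about 1 in 20 sets. For Kcnq5, Q175 library F1 at 6 months was the highest of its group at 98.8 CPM, still below the lowest Q20 library. For Kcnu1, Q175 library F4 at 10 months was the lowest of its group at 2.88 CPM.

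The Q175 effect differed between ages by the test of the difference for the members that the rule names. Between 6 and 2 months the difference (6 minus 2, log2) was -0.71 for Kcnh4, -0.55 for Kcnip2, -0.46 for Kcnq5, -0.41 for Kcnk2 and -0.35 for Kcnip3. Between 10 and 2 months it was -0.60 for Kcnh4, -0.58 for Kcnip2, -0.42 for Kcnq5, -0.64 for Kcnh5 and -0.29 for Kcnip3.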

How the results depend on the processing

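Of 1097 alternative values for 106 results on single members, 1039 kept their direction and side of the threshold, 58 kept the direction and lost the call, and 0 reversed. Only results called in the main fit entered, and the alternatives drew on the same libraries, so these counts are no independent check. An alternative whose filter a member did not pass gave no value and was not counted. The Q175 against Q20 count was 33 to 37 members over the alternatives at 6 months (34 as reported) and 18 to 32 at 10 months (23 as reported, 32 with tissue scores as covariates). At 10 months limma on log2(FPKM + 0.1) called 18 of 67 members tested and 5218 of 13897 genes. On log2(FPKM + 1) it called 19 of 67 members and 5242 of 13897 genes. On this scale members were called less often than genes as a whole at 10 months. The 2-month count, 1 as reported, was 0 with limma on log2(FPKM + 1) or log2(FPKM + 0.1), with the L code as a factor and with only the Q175 and Q20 libraries, and 2 with tissue scores, with all wild types as the reference and with DESeq2. The 2-month trend count, 2 as reported, was 0 with the L code or without the Q175 libraries and 4 without the Q20 libraries. The single call in Q80 against Q20 at 6 months was Kcne2 and became 0 with limma on log2(FPKM + 1), whose filter Kcne2 did not pass (3 libraries with at least 1 FPKM, 8 needed), with the replicate block and without the libraries set apart. Leaving those libraries out gave 1 call in Q80 against its own wild types, where 0 were reported. In that fit 36 of 17742 genes tested were called. That fit left out Q80 library F3, with a choroid plexus score of 5.4. It kept library M2 of these wild types, with a score of 5.3, and the part of this in the call was not tested. The cause of the other changes was not tested.

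The replicate numbers were not taken as pairs, since the labels give them no shared source. Some same-numbered pairs had negative correlations at each age, which cannot show that the numbers mark nothing shared. The deviations of same-numbered libraries had a mean correlation of -0.0012 at 2 months, 0.055 at 6 months and 0.018 at 10 months, against 0.0011, -0.018 and -0.0057 for other numbers. In that order of ages 7 of 56, 67 of 96 and 18 of 56 libraries correlated best with their own number, at 6 months a hint from the data, not the design, that numbers may mark something shared. With the replicate block 1 member was called in Q175 at 2 months, 34 at 6 months and 24 at 10 months, over all genes the 6-month Q175 calls were 6874 in place of 6382, and the Q92 count at 10 months was 1 in place of 2. At 2 months the larger SE limits what could be called. Leaving out the libraries set apart was chosen after seeing the data.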
